A study of Rattus norvegicus with 27 samples.

Results

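The cytosolic ribosomal protein genes were followed in hearts of male Fisher 344 rats, a laboratory inbred strain, kept in filtered air or in ambient particles of 3 size classes, coarse, fine and ultrafine. Members were the probes whose gene symbol is Rpl or Rps followed by a digit, or is Rplp0, Rplp1, Rplp2 or Rpsa, without the Rps6k kinases and without pseudogene or "like" symbols. The rule used names alone and no measured value, but was chosen with earlier results of these data known. It took 68 of the 22226 probes, for 67 genes, of which only Rps19 had 2 probes. The members were 35 large subunit, 24 small subunit and 3 stalk probes, 5 probes for paralogues named after a parent gene (Rpl3l, Rpl7l1, Rpl22l1, Rpl36al1 and Rpl37l1), and 1 for Rps19bp1, which binds a ribosomal protein and is not one itself. Total RNA was hybridised to Illumina rat bead arrays. The table held 27 arrays, each given as a separate sample: the filtered air group had 7, coarse 6, fine 6 and ultrafine 8. All 4 groups began at an age of 4 weeks and lasted 3 months, with filtered air as the control. Nothing in the labels says whether 2 arrays share an animal, so each p-value measures the spread between these arrays. The question behind the comparisons was whether long exposure to particles of a given size alters gene expression in the heart.

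The cytosolic ribosome makes the proteins encoded in the nucleus. Its small subunit reads the messenger RNA, its large subunit joins the amino acids, and the acidic stalk of the large subunit, built on Rplp0 with Rplp1 and Rplp2, recruits the elongation factors. Ribosomal protein mRNAs start with a run of pyrimidines at the very 5′ end, the TOP motif, through which mTOR signalling and the protein Larp1 control their translation together, and they are among the most abundant mRNAs of dividing cells. Striated muscle also has its own paralogue, Rpl3l, which takes the place of Rpl3 in part of the ribosomes of heart and skeletal muscle.

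To show the sequence around this start, 80 bases are given for 10 members on which the results below turn. They are the 50 bases before the annotated transcription start and 30 from it on. They come from the RefSeq promoter table of the GRCr8 assembly, 5′ to 3′ on the strand of the gene. Capitals mark the longest run of at least 6 pyrimidines that reaches to within 10 bases of the start. Such a run need not cover the start, and that of Rpl3l lies at bases 10 to 18. Capitals alone thus do not mark a TOP motif. Rpl35 and Rps16, the markers named for this gene group, lie at chr3:43165892-43165971 (minus strand) and chr1:92770608-92770687 (plus strand). Rpl14 and Rpl27a, the members with the smallest p-values for coarse particles against air once 9 deviating arrays were left out, lie at chr8:129163570-129163649 (plus strand) and chr1:172974523-172974602 (plus strand). Rpl3 and its muscle paralogue Rpl3l lie at chr7:113507961-113508040 (minus strand) and chr10:14258396-14258475 (plus strand). Rps13, Rps3a and Rps27, the members with the widest spread, lie at chr1:180009631-180009710 (minus strand), chr2:173827013-173827092 (minus strand) and chr2:177964577-177964656 (minus strand). Rps24, which had the smallest p of all members in the test among the 4 groups over 27 arrays, lies at chr16:96467-96546 (plus strand). Each window spans the proximal promoter and the first bases of the first exon.
Rpl35: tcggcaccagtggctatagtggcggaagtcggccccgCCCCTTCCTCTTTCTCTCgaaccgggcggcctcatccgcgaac
Rps16: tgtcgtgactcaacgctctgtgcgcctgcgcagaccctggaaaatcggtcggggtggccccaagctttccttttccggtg
Rpl14: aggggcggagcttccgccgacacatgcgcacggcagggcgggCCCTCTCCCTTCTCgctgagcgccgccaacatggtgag
Rpl27a: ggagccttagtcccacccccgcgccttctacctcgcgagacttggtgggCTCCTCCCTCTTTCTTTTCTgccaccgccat
Rpl3: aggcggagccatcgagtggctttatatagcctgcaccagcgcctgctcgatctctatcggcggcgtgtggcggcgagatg
Rpl3l: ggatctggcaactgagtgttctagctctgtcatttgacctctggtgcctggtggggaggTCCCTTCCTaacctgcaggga
Rps13: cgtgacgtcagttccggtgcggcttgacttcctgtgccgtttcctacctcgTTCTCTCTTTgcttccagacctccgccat
Rps3a: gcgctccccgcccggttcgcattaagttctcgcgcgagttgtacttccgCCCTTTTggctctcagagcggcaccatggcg
Rps27: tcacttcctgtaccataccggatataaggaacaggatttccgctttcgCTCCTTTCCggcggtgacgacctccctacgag
Rps24: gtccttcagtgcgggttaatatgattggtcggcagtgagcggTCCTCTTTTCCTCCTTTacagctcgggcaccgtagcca

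Of the 66 ribosomal member genes, 56 were in the promoter table and 10 were not. A run of at least 6 pyrimidines reaching to within 10 bases of the annotated start was present in 43 of the 56, or 76.8%. The share was 28.5% of 21851 protein-coding genes and 32.3% of 65 mitochondrial ribosomal protein genes. For runs of at least 10 the shares were 57.1%, 6.62% and 6.15%. Rpl7a had a run of 24 bases, Rps23 of 21, and Rpl27a, Rpl34 and Rps2 of 20 each. Rps16, Rpl3, Rps12, Rpl6, Rpl18, Rpl36 and Rpl41 were among those with no run reaching that close to the annotated start. A run further off was not counted, and the annotated start may differ from the start used in the heart. The letters CCGGAAG, the core of the ETS family motif, were searched on both strands of the whole window of 250 bases before to 50 after the start. They were found in 30.4% of the members, 10.7% of all protein-coding genes and 32.3% of the mitochondrial ribosomal genes. The letters AAGATGGC, the core of the YY1 motif, were found in 8.93%, 3.67% and 24.6%. Read on the opposite strand CCGGAAG opens with pyrimidines, so a match can overlap a pyrimidine run. A match describes the sequence alone.

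Values are on the log2 scale of the deposited table, so a difference of 1 is a factor of 2 if the authors' transform was a plain log2. Of the 68 probes, 61 were among the 11657 kept after the filter on low values, each for a different gene, and these 61 are the members described from here on. The probes of Rpl11, Rpl12, Rpl34, Rpl36a, Rplp2 and both of Rps19 were not kept. Their means over all arrays were 5.56 to 5.73, near the floor of the arrays, so nothing can be said of them here. Means of the kept members ran from 6.03 to 13.5, and 49 of them lay above 10. The probes of Rps16, Rps24, Rpl5, Rpl15, Rpl31, Rpl3l, Rpl22l1 and Rps19bp1 had means under 8. Ribosomal protein genes have many near-identical processed copies in the genome, so a probe may read more than its named gene, those of Rpl36al1 and Rpl37l1 included. Probe sequences were not used, so this was not checked for any probe.

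Before the comparisons below, 9 of the 27 arrays stood apart. Of these, 8 had a mean over the 11 kept T cell, thymocyte and lymphocyte markers more than 3 median absolute deviations over that of the median array. The other, ultrafine 8, had a median correlation with the remaining arrays of 0.913, under the limit of 0.949 drawn from all arrays. Coarse 1, ultrafine 2 and ultrafine 7, already among the 8, were under that limit too, at 0.904, 0.945 and 0.903. The other 18 arrays left 6 in the air group, 3 in coarse, 4 in fine and 5 in ultrafine, and on them the lymphocyte mean ran from 5.85 to 6.53. Its highest value was 8.96 in filtered air, 10.06 with coarse, 7.85 with fine and 9.99 with ultrafine particles, so arrays with raised markers were in every group. Of the 18 lymphocyte genes listed, 12 were on the array and 11 were kept. The list was chosen with earlier results of these data known. Rag1 and Dntt, which act in T cell receptor gene assembly in the thymus, had medians of 5.66 and 5.77 on the 18 arrays, near the floor, and stood at 11.25 and 9.21 on coarse 1. Cd4 and Cd79b differed least of the 11, with medians of 5.88 and 5.81 and values of 6.28 and 6.33 on coarse 1. On fine 2 they were inside the range of the 18 arrays. Cardiomyocyte markers were high on every array, with means over 10 probes of 11.38 to 12.66. The 18 arrays were not all alike. Coarse 6 had a skeletal muscle marker mean of 10.49, against 8.45 to 9.32 on the rest of the 18. On ultrafine 5, 81 kept probes were more than 1 above their 18-array median and 48 more than 1 below, against at most 20 and 17 on the rest. In RNA of heart tissue, fewer cells of a type and less RNA per cell cannot be told apart.

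Most ribosomal protein probes were higher on the arrays with raised lymphocyte markers than on the other arrays. A deviation is here the value on 1 array minus the median of that probe over the 18 arrays. On the 18 arrays themselves the mean of the 61 members ran from 10.66 to 10.93. It was 11.59 on coarse 1, 11.57 on ultrafine 7, 11.33 on ultrafine 2, 11.22 on filtered air 1, 11.15 on coarse 2 and 11.02 on fine 2. These are the 6 arrays with the highest lymphocyte markers, 8.26 to 18.7 median absolute deviations above the median array, and they come from all 4 groups. The median deviation of the members was 0.83 on ultrafine 7, 0.77 on coarse 1, 0.55 on ultrafine 2, 0.40 on filtered air 1, 0.34 on coarse 2 and 0.22 on fine 2. The median over all kept probes on the same arrays lay between -0.056 and -0.0091. On coarse 5 and fine 4, whose lymphocyte means were 6.91 and 6.84, the median deviations of the members were 0.046 and 0.13.

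**Figure D1:**
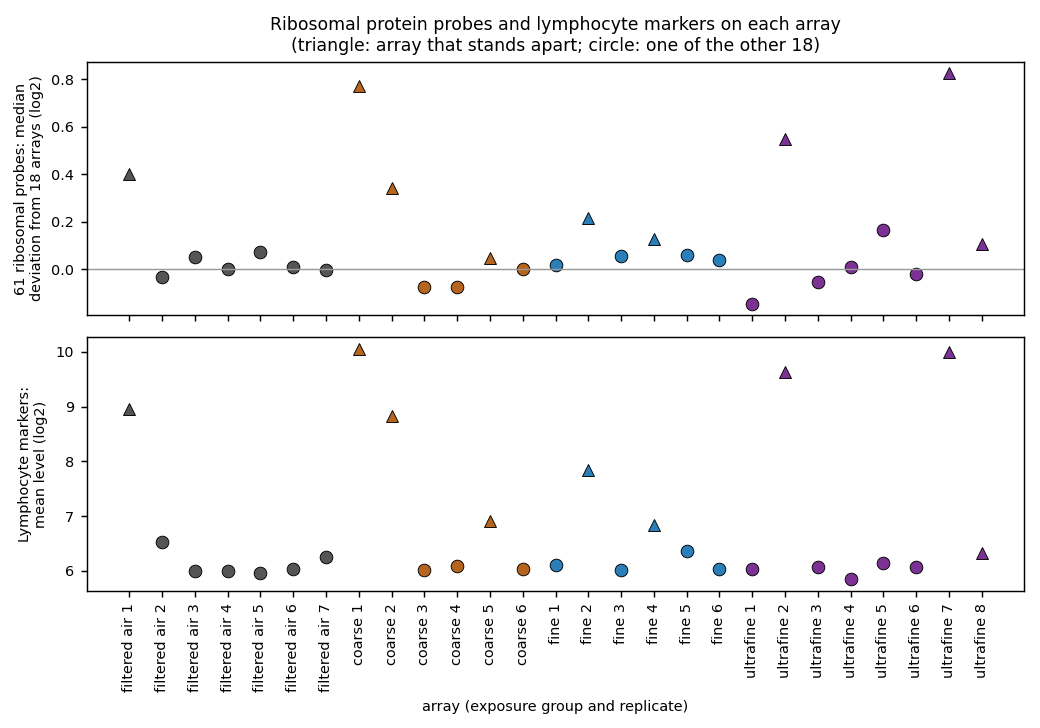
Median log2 deviation of the 61 ribosomal protein probes from their medians over 18 arrays (upper panel) and mean log2 level of the 11 kept lymphocyte markers (lower panel) on each of the 27 arrays, by exposure group and replicate. Triangles are the 9 arrays that stand apart and circles the other 18. Coarse 1 and ultrafine 7 are highest in both panels, while ultrafine 8 is not raised in the lower one.

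A member was higher than on all 18 other arrays in 56 of 61 cases on ultrafine 7, where 22.3% of all kept probes were. The same held for 54 on coarse 1 (22.1% of all kept probes), for 54 on ultrafine 2 (16.6%) and for 48 on filtered air 1 (12.2%). On coarse 2 it held for 37 members (11.0%) and on fine 2 for 26 (14.1%). On fine 4 it held for 10 (4.71%) and on coarse 5 for 4 (4.29%). On all 6 arrays with the highest lymphocyte markers, 45 of the 61 members lay above their median over the 18 arrays, where 15.8% of all kept probes did. These counts describe the arrays and were not tested. The shares of all kept probes were not matched for level. A mean of 9 or more was held by 53 of 61 members, against 1294 of 11657 kept probes. The part of level and of lymphocyte RNA in these counts was not tested.

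The members differed in how high they stood on these 6 arrays. Rps12, a small subunit protein, deviated by 0.54 to 1.68, with a median of 0.99. Rpl13 of the large subunit deviated by 0.64 to 1.80, with a median of 0.94. Rpl3, which reaches towards the peptidyl transferase centre, deviated by 0.36 to 1.69, with a median of 0.88. Each of these genes was higher on each of the 6 arrays than on any of the 18. The paralogue Rpl37l1 ranked between Rpl13 and Rpl3 with a median of 0.91, and Rps26, Rpl27a and Rpl10a came after Rpl3 with 0.78, 0.73 and 0.69. Rpl35 lay further down the order, with 0.33 to 1.23 and a median of 0.45. Members with a pyrimidine run reaching to within 10 bases of the start had a median deviation of 0.49 over these arrays (40 genes). Those without one had 0.39 (10 genes). This is a description with no test, and the split is not one by TOP motif.

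Few members did not stand higher on most of these arrays. Rpl3l, the muscle paralogue, was above its 18-array median on 3 of the 6, with a median deviation of -0.011. It deviated by 0.34 on fine 2, 0.013 on coarse 2, 0.078 on filtered air 1, -0.036 on coarse 1, -0.18 on ultrafine 7 and -0.23 on ultrafine 2. Its parent Rpl3 deviated by 0.36, 0.72, 0.78, 1.69, 1.69 and 0.98 on the same arrays in that order. The pair was thus close together on fine 2 and Rpl3 deviated by more on the other 5. The cardiomyocyte marker mean was 11.38 to 12.44 on the 6 arrays, lowest on ultrafine 7, ultrafine 2 and coarse 1, against 12.15 to 12.66 on the 18. The part of cardiomyocyte RNA in the level of Rpl3l was not tested.

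Rpl22l1, the paralogue of the large subunit protein Rpl22, was above its 18-array median on only 1 of the 6 arrays, with a median deviation of -0.14. Rpl22 was above its own on all 6, with a median of 0.35. Rpl7l1, a relative of Rpl7, was above its median on all 6 as well, by 0.12 to 0.71, and Rpl7 by 0.58 to 1.09. Rpl36al1 deviated by 0.052 to 0.46. Rps19bp1 was above its median on 2 of the 6 arrays, and Rps24 on 4, with a median deviation of 0.018. Rplp0, the base of the stalk, was at -0.013 on coarse 1 and at 0.27 to 0.64 on the other 5 of the 6. Rpl41, the smallest protein of the large subunit, was at 0.018 on coarse 1 and at 0.22 to 0.55 on the others. The probes of Rpl3l, Rpl22l1, Rps24 and Rps19bp1 are all dim ones, with means under 8.

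**Figure D2:**
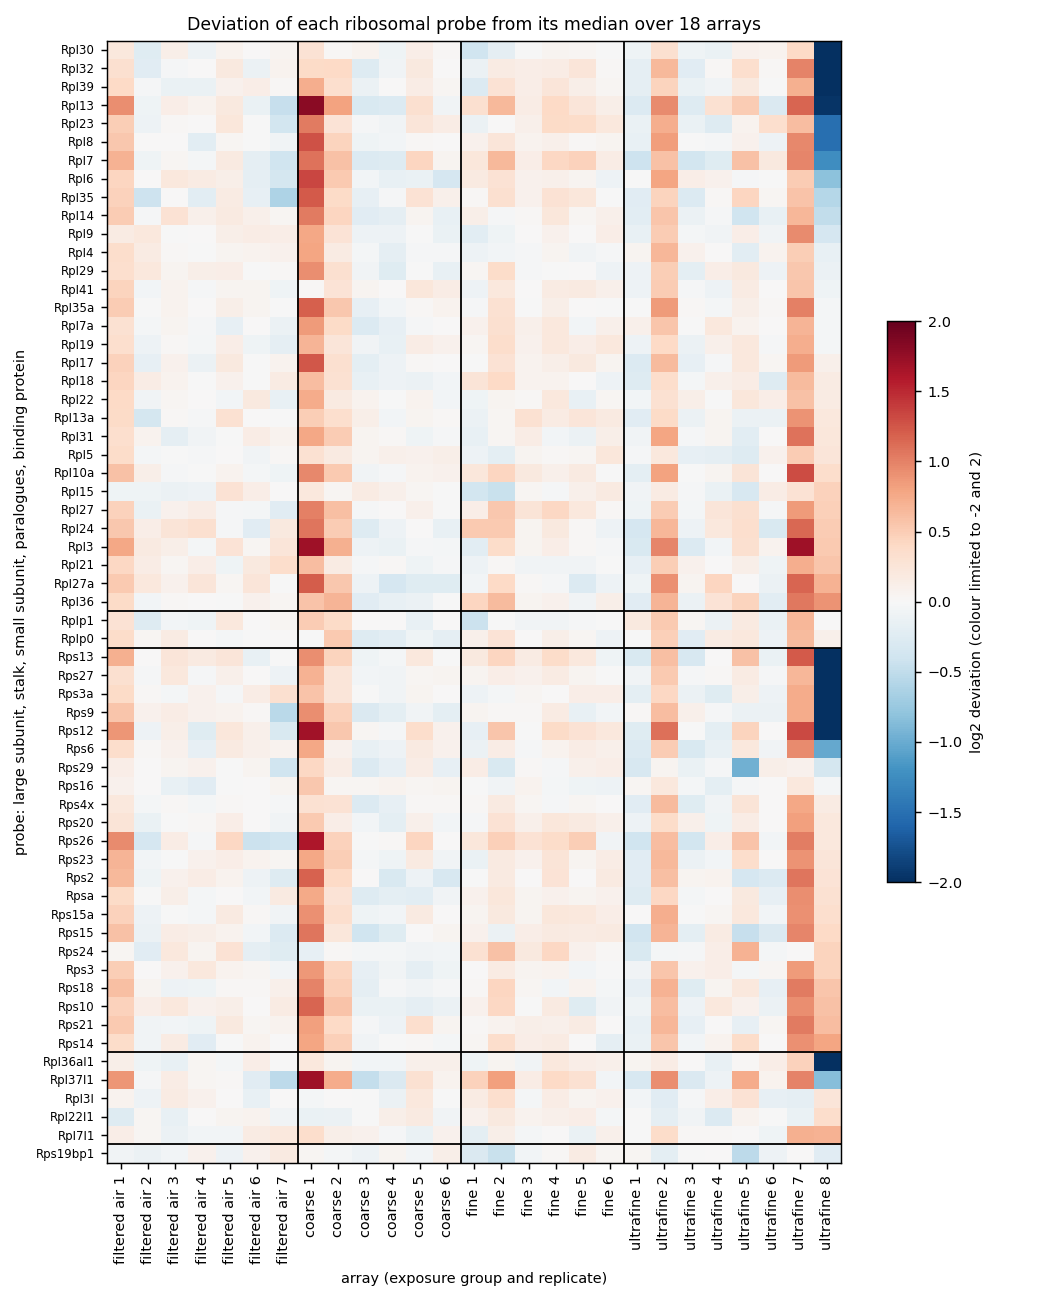
Log2 deviation of each of the 61 ribosomal protein probes (rows, by subunit and class) from its median over 18 arrays on each of the 27 arrays (columns, by exposure group and replicate), with the colour limited to -2 and 2. Coarse 1, ultrafine 2 and ultrafine 7 are raised over most rows, and ultrafine 8 is low in a subset of 14 rows.

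Ultrafine 8 showed another pattern, in which the members split. There 14 of the 61 probes lay more than 1 below their 18-array median, where 5.82% of all kept probes did, while 33 lay above it. Bright probes at large split there too, so the split was not particular to the members. Of all kept probes with a mean of 9 or more 20.6% lay that low, and of such members 26.4%. The 14 were 7 of the large subunit, 6 of the small subunit and the paralogue Rpl36al1. Rps13 was at 7.13 on ultrafine 8 and at 10.60 to 12.16 on the other 26 arrays. Rps27 was at 9.02 there and at 12.55 to 13.35 on the others. Rps3a was at 8.79 there and at 12.12 to 13.11 on the others. These small subunit genes deviated by -3.79, -3.63 and -3.58, outside every other array of any group. Rps9, Rpl30 and Rpl36al1 deviated by -3.34, -3.28 and -3.14, and Rpl32, Rpl39 and Rps12 by -2.98, -2.40 and -2.36. Rpl13, Rpl23, Rpl8, Rpl7 and Rps6 deviated by -1.96, -1.51, -1.51, -1.25 and -1.02. Each of the 14 was lower on ultrafine 8 than on any of the other 26 arrays.

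The remaining 47 members deviated by -0.85 to 0.90 on ultrafine 8. Rpl36 stood at 0.90, Rps14 at 0.78 and Rpl7l1 at 0.69. Compared with the range of the 18 arrays, 21 members were above it, where 27.9% of all kept probes were, and 18 were below it, where 15.5% were. All of the 14 low probes had a mean of 9 or more over all arrays. Among all kept probes with such a mean, 20.6% (266 of 1294) were lower by more than 1, and among the members with such a mean 26.4% (14 of 53). Of the 8 members with a lower mean 0 were, against 3.98% of 10363 kept probes. The same array had 4 of 10 cardiomyocyte probes lower by more than 1. The lymphocyte mean of ultrafine 8 was 6.33, inside the range of the 18 arrays. The part of the array itself and of its RNA in this pattern was not tested.

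**Figure D3:**
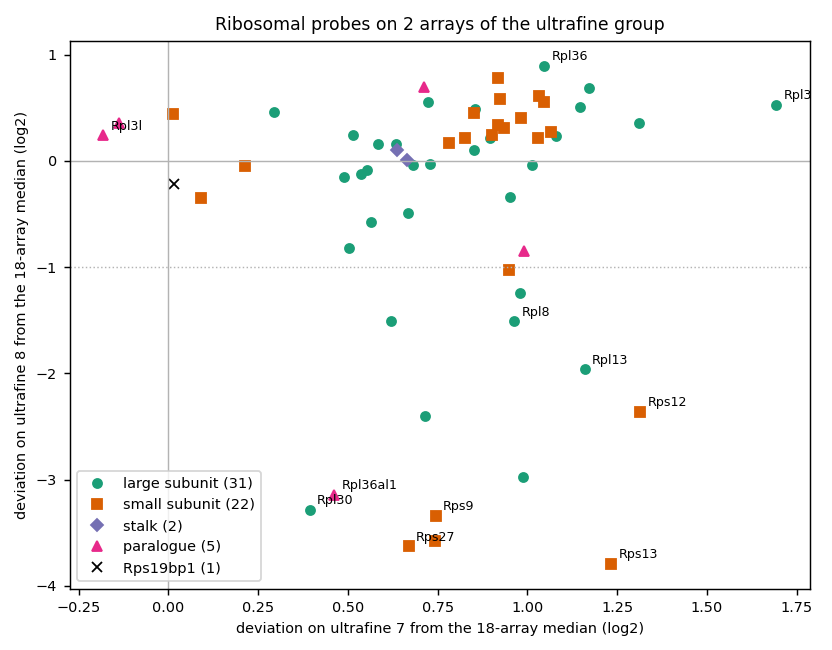
Log2 deviation of each ribosomal protein probe from its 18-array median on ultrafine 8 (vertical axis) against that on ultrafine 7 (horizontal axis), 2 arrays of the same exposure group, with symbols for the class. Nearly all points lie right of 0 on ultrafine 7, while on ultrafine 8 they split into 47 between -0.85 and 0.90 and 14 below -1, down to -3.79 for Rps13.

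Exposure groups were compared with filtered air in 1 limma fit over all 27 arrays, with p-values adjusted by Benjamini-Hochberg over the 11657 kept probes and a call at an adjusted p under 0.05. No member was called in any of the 6 comparisons over 27 arrays. The 3 comparisons with air share the 7 filtered air arrays. A positive difference is higher in the first group named.

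With coarse particles 53 of 61 members had a higher mean than in filtered air, with a median log2 difference of 0.074, against 48.4% and -0.0036 over all kept probes. None was called, where 0.00858% of all kept probes were called, and 2 members (3.28%), Rpl35 and Rps16, had an unadjusted limma p under 0.05, where 4.07% of all kept probes did. Of the large subunit 27 of 31 were higher (median 0.12) and of the small subunit 20 of 22 (median 0.060). The stalk protein Rplp0 differed by -0.11 (SE 0.12) and Rplp1 by 0.11 (SE 0.13). The shift rested on coarse 1: without it 27 of 61 were higher and the median was -0.014. Without the 9 arrays that stand apart, which left 3 coarse arrays, 18 of 61 were higher and the median was -0.089.

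Rpl35, a large subunit protein near the exit of the peptide tunnel, ran from 10.96 over a median of 11.42 to 12.04 in filtered air. It ran from 11.41 over a median of 11.77 to 12.81 with coarse particles, from 11.57 over a median of 11.74 to 11.91 with fine and from 11.01 over a median of 11.61 to 12.14 with ultrafine particles. The ranges overlapped, and coarse 1 was the highest array of all. Coarse minus air was 0.41 (SE 0.20, 1.33-fold, adjusted p = 0.985 in the limma fit), and over the 18 arrays 0.18 (SE 0.15, adjusted p = 0.904). Fine minus air was 0.27 (SE 0.20, adjusted p = 0.923 in the limma fit). Ultrafine minus air was 0.17 (SE 0.19, adjusted p = 0.894 in the limma fit).

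Rps16, a small subunit protein, ran from 5.79 over a median of 6.02 to 6.11 in filtered air and from 6.05 over a median of 6.07 to 6.56 with coarse particles. It ran from 5.92 over a median of 5.96 to 6.08 with fine and from 5.82 over a median of 6.00 to 6.23 with ultrafine particles. The probe sits just above the floor of the arrays, and coarse 1 was the highest of all. Coarse minus air was 0.16 (SE 0.077, adjusted p = 0.985 in the limma fit), and over the 18 arrays 0.11 (SE 0.068, adjusted p = 0.815). Rps26, also of the small subunit, ran from 11.13 to 12.50 in air and from 11.55 to 13.18 with coarse particles, a difference of 0.38 (SE 0.26). Rps12 ran from 9.75 to 10.94 and from 10.03 to 11.73, a difference of 0.35 (SE 0.39). At the other end were Rplp0, Rpl21 at -0.060 (SE 0.13) and Rpl27a at -0.056 (SE 0.22). The ranges of air and coarse overlapped for each of these genes.

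With fine particles the members were spread about 0: 34 of 61 were higher than in air, with a median of 0.025, against 50.8% and 0.0018 over all kept probes. None was called, where 0.0% of all kept probes were, and 1 member, Rps24, had an unadjusted limma p under 0.05, where 5.98% of all kept probes did. With the 9 arrays left out, the count was 38 of 61 and the median 0.033, with 0.0% of all probes and no member called by limma and 5 members (8.20%) at an unadjusted p under 0.05, against 9.55% of all kept probes. Without fine 2 the count over the other 26 arrays was 29 of 61. Rps24 of the small subunit, mutated in some people with Diamond-Blackfan anaemia, ran from 6.84 over a median of 7.13 to 7.37 in air and from 7.10 over a median of 7.34 to 7.67 with fine particles. It ran from 6.91 over a median of 7.04 to 7.11 with coarse and from 6.78 over a median of 7.08 to 7.77 with ultrafine particles, so all ranges overlapped. Fine minus air was 0.28 (SE 0.12, adjusted p = 0.824 in the limma fit), and over the 18 arrays 0.17 (SE 0.14, adjusted p = 0.747).

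Rpl7 and Rpl37l1 had the largest differences from air with fine particles, 0.30 (SE 0.27) and 0.30 (SE 0.31). Lowest were Rpl21 at -0.22 (SE 0.13), Rpl27a at -0.20 (SE 0.22) and Rpl3 at -0.17 (SE 0.28). Rpl21, of the large subunit, ran from 11.46 over a median of 11.68 to 11.96 in air and from 11.44 over a median of 11.47 to 11.57 with fine particles. Rpl3 ran from 11.54 over a median of 11.75 to 12.35 in air and from 11.36 over a median of 11.62 to 11.94 with fine particles. The ranges of air and fine overlapped for each of these genes.

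With ultrafine particles 41 of 61 members were higher than in air, with a median of 0.074, against 51.7% and 0.0039 over all kept probes. None was called, where 0.0686% of all kept probes were, and 0 had an unadjusted limma p under 0.05, where 5.28% of all kept probes did. The lowest differences belonged to genes that were low on ultrafine 8: Rps3a at -0.50 (SE 0.37), Rps13 at -0.44 (SE 0.43) and Rps27 at -0.37 (SE 0.38). The 95% interval of Rps13 ran from -1.33 to 0.45. Without ultrafine 8 these genes differed by -0.039, 0.064 and 0.11. Without ultrafine 7 the count over all members was 27 of 61 and the median -0.015, and over the 18 arrays the count was 23 and the median -0.031. Leaving ultrafine 5 out of those 18 as well gave 10 of 61. Highest against air were Rpl36 at 0.28 (SE 0.18), Rps14 at 0.27 (SE 0.15) and Rpl27 at 0.24 (SE 0.15). Rpl36 ran from 10.23 to 10.68 in air and from 10.06 to 11.34 with ultrafine particles, which overlapped. Among the 18 arrays these genes differed by 0.019, 0.060 and 0.11.

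**Figure D4:**
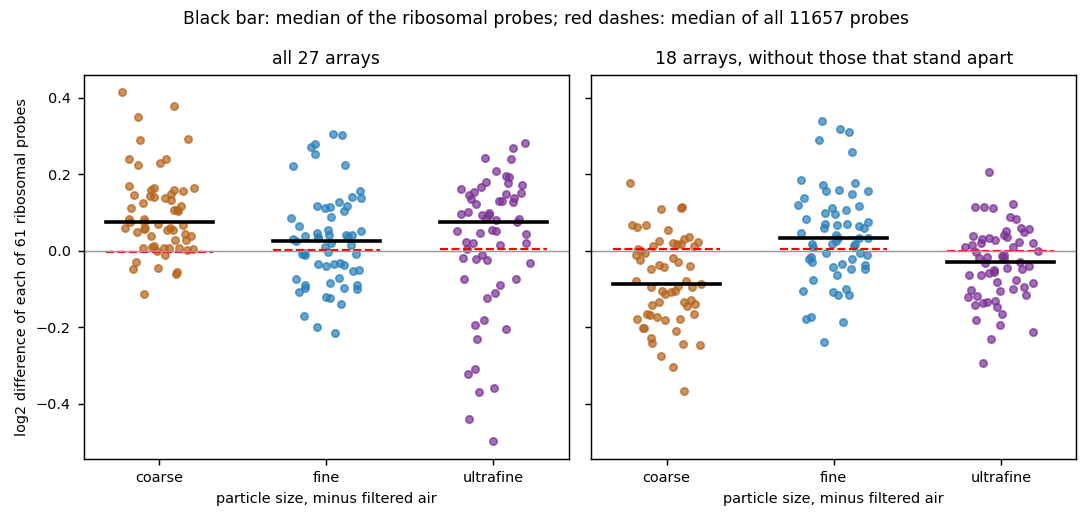
Log2 difference from filtered air of each of the 61 ribosomal protein probes (points) with coarse, fine and ultrafine particles, over all 27 arrays and over the 18 arrays that do not stand apart. Black bars are the medians of the ribosomal probes, 0.074, 0.025 and 0.074 over 27 arrays and -0.089, 0.033 and -0.031 over 18, and red dashes the medians of all 11657 probes. The coarse and ultrafine medians change sign between the panels.

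Over the 18 arrays Rpl14 of the large subunit was the 1 member called, and it was singled out after its values were seen. In filtered air its values were 12.70 on the array that stands apart and 12.17, 12.48, 12.29, 12.37, 12.30 and 12.22 on the others. With ultrafine particles they were 11.98, 12.06, 12.17, 11.80 and 12.04 on the 5 arrays kept, 12.74 and 12.86 on the arrays with high lymphocyte markers, and 11.69 on ultrafine 8. The highest kept ultrafine array and the lowest kept air array met at 12.17, and the other kept ultrafine arrays lay below all kept air arrays. Over all 27 arrays the difference from air was -0.19 (SE 0.17, adjusted p = 0.894 in the limma fit). With the 9 arrays left out, Rpl14 fell, with a difference of -0.29 (SE 0.064, 1.23-fold, adjusted p = 0.0413 in the limma fit), where 0.575% of all kept probes were called and 3 members (4.92%) had an unadjusted p under 0.05, against 8.81% of all kept probes.

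That call depended on the arrays. When each of the 18 arrays was left out in turn, an alternative added after seeing the data, Rpl14 was called in 3 fits and not in the other 15. The difference stayed between -0.33 and -0.24, and the adjusted p ran from 0.0199 to 0.101 in these limma fits. With coarse particles Rpl14 read 11.96, 12.00 and 12.04 on the arrays kept, a difference from air of -0.30 (SE 0.075, adjusted p = 0.145 in the limma fit). The 3 coarse values lay below all kept air values, and the gene was called for coarse particles only when ultrafine 5 was left out of the 18 as well. With fine particles it read 12.30, 12.21, 12.22 and 12.30, which overlapped air, and differed by -0.048 (SE 0.068).

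Over the same 18 arrays 9 members (14.8%) had an unadjusted limma p under 0.05 between coarse particles and air, against 7.35% of all kept probes. All of them were lower with coarse, and none was called, where 0.24% of all kept probes were. Beside Rpl14 they were Rpl27a, Rpl29, Rpl4, Rpl9, Rplp0, Rps10, Rps3 and Rpsa. Rps3 and Rpsa are small subunit proteins with known roles outside the ribosome, in DNA repair and as the laminin receptor precursor. Rpl27a read 10.43, 10.20 and 10.29 on the 3 coarse arrays and 10.53 to 10.78 on the 6 air arrays. Its difference was -0.37 (SE 0.10, adjusted p = 0.254 in the limma fit). With 3 coarse arrays, the number of arrays limits the precision of each such value.

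**Figure D5:**
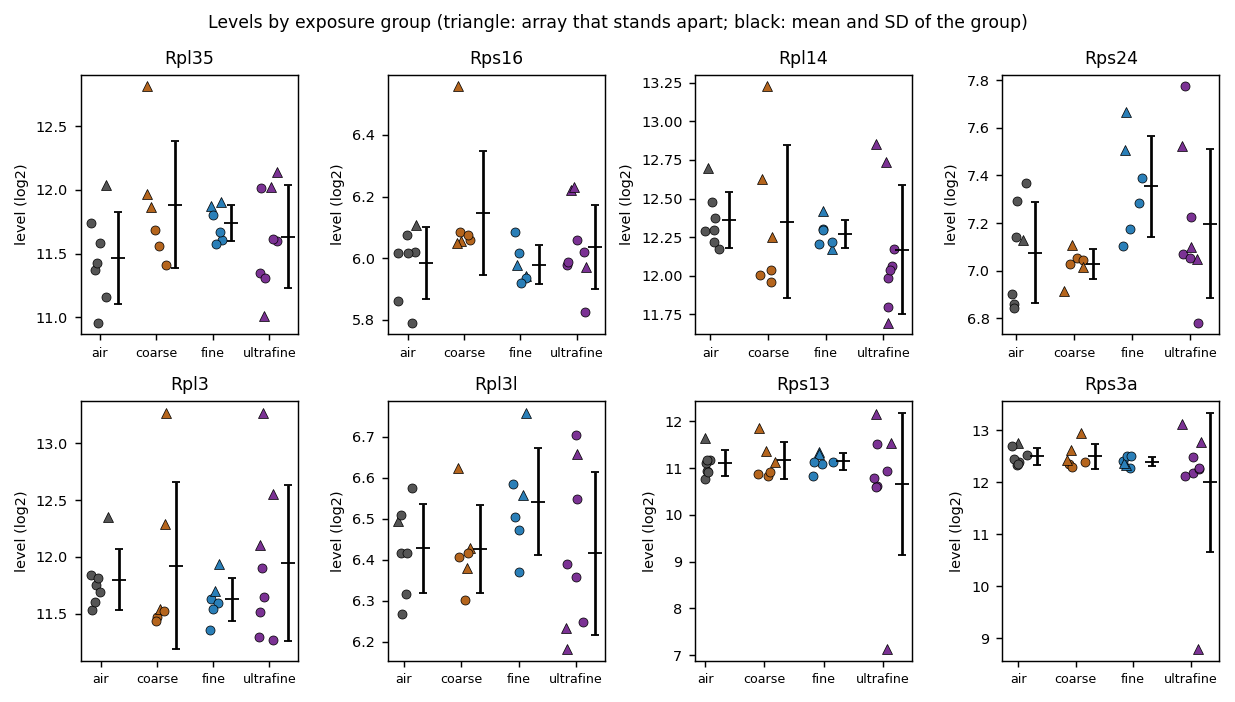
Log2 level of 8 ribosomal protein probes on each array by exposure group, with triangles for the 9 arrays that stand apart and black bars for the mean and SD of all arrays of a group. Rpl35, Rps16 and Rpl3 have their highest coarse value on coarse 1, and Rps13 and Rps3a have a single ultrafine array at 7.13 and 8.79.

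Between particle sizes no member was called over 27 arrays either. Coarse was above fine for 48 of 61 members with a median of 0.093, where 0.0257% of all kept probes were called and 2 members (3.28%), Rps24 and Rps16, had an unadjusted limma p under 0.05, against 6.58% of all kept probes. Without coarse 1 the count was 17 and the median -0.054. Among the 18 arrays it was 11 and the median -0.11, with 0.146% of all probes and no member called, and 9 members (14.8%) at an unadjusted limma p under 0.05 against 9.69% of all kept probes. Leaving fine 1 out of the 18 as well gave 5 of 61. Rps24 differed by -0.33 (SE 0.13, adjusted p = 0.736 in the limma fit), and its highest coarse array, at 7.11, just passed its lowest fine array, at 7.10. Rps16 differed by 0.17 (SE 0.080, adjusted p = 0.738 in the limma fit). Rpl3l stood at -0.11 (SE 0.084) and its parent Rpl3 at 0.29 (SE 0.30).

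Coarse was above ultrafine for 35 of 61 members with a median of 0.011, where 0.0% of all kept probes were called. By limma no member was called and 0 reached an unadjusted p under 0.05, where 2.56% of all kept probes did. The highest differences, 0.51 for Rps13, 0.50 for Rps3a and 0.45 for Rps27, held the low values of ultrafine 8. The lowest were Rpl27a at -0.25 (SE 0.22), Rpl36 at -0.22 (SE 0.19) and Rplp0 at -0.19 (SE 0.12). Without coarse 1 the count was 24 and the median -0.12, and without ultrafine 7 49 and 0.12. Over the 18 arrays 19 of 61 were higher with coarse particles, the median was -0.047, and 0.0% of all probes and no member were called, 5 members (8.20%) being at an unadjusted limma p under 0.05 against 5.27% of all kept probes. Leaving ultrafine 5 out of the 18 as well gave 31 of 61.

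Fine was above ultrafine for 27 of 61 members with a median of -0.037, and none was called, where 0.197% of all kept probes were. At an unadjusted limma p under 0.05 there were 3 members (4.92%), Rplp1, Rpl21 and Rpl7l1, a smaller share than the 12.1% of all kept probes. Rplp1 of the stalk ran from 11.24 over a median of 11.62 to 11.66 with fine and from 11.53 over a median of 11.77 to 12.33 with ultrafine particles, a difference of -0.27 (SE 0.12, adjusted p = 0.371 in the limma fit). Rpl21 differed by -0.26 (adjusted p = 0.393 in the limma fit) and Rpl7l1 by -0.24 (adjusted p = 0.389 in the limma fit). The ranges overlapped for all 3. The lowest differences were Rpl27a at -0.39 (SE 0.22) and Rpl3 at -0.32 (SE 0.28). The highest were Rps13 at 0.48 (SE 0.45), Rps3a at 0.40 (SE 0.39) and Rps27 at 0.38 (SE 0.40), again with the low values of ultrafine 8. Without ultrafine 8 the count was 15 and the median -0.069, and without ultrafine 7 39 and 0.055.

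With the 9 arrays left out, the direction turned, with 47 of 61 members higher with fine particles and a median of 0.076. No member was called there, where 0.463% of all probes were, and 6 members (9.84%) had an unadjusted limma p under 0.05, against 11.2% of all kept probes. Among these Rps15, a small subunit protein chosen after its values were seen, read 10.56, 10.61, 10.65 and 10.66 with fine and 10.10, 10.29, 10.64, 10.01 and 10.20 with ultrafine particles. Its difference was 0.37 (SE 0.12, adjusted p = 0.181 in the limma fit). It was called when ultrafine 4 was left out of the 18 as well.

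A test of any difference among the 4 groups called no member over 27 arrays, where 0.0944% of all kept probes were called and 0 members had an unadjusted limma p under 0.05. The smallest p was that of Rps24 (adjusted p = 0.754 in the limma F test). Over 18 arrays the F test called none, where 0.515% of all probes were called at an adjusted p. There 8 members had an unadjusted limma p under 0.05. Rpl14 had the smallest p over the 18 arrays (adjusted p = 0.0511 in the limma F test). The share of all kept probes at an unadjusted p was not counted for either F test. The member counts of 0 and 8 thus have no background beside them, and no excess can be read from them.

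The members spread over the arrays more than other probes did, and the gap was smaller without the 9 arrays that stand apart. The median SD of a member over 27 arrays was 0.31, against 0.18 over all kept probes, and over the 18 arrays 0.14 against 0.13. These SDs were not matched for level: 53 of 61 members had a mean of 9 or more, against 1294 of 11657 kept probes. The part of level in the gap was not tested. Rps13, Rps27 and Rps3a had the largest SDs over 27 arrays, 0.85, 0.75 and 0.74, which were 0.22, 0.082 and 0.14 over the 18. Rpl22l1, Rps16 and Rpl3l had the smallest, 0.14, 0.14 and 0.15, and all 3 are dim probes, with means of 6.51, 6.03 and 6.45.

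The paralogues gave no call against filtered air. Rpl3l ran from 6.27 over a median of 6.42 to 6.58 in air and differed by -0.0015 with coarse, 0.11 with fine and -0.012 with ultrafine particles (SEs 0.081, 0.081 and 0.076). Rpl22l1 differed by 0.037, 0.14 and 0.016, and its parent Rpl22 by 0.11, -0.035 and 0.13. Rpl7l1 differed by 0.038, -0.072 and 0.17. Rpl36al1 differed by 0.058, 0.052 and -0.31, and the last value was 0.095 without ultrafine 8 and 0.030 over the 18 arrays.

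Other translation genes were counted beside the members, from 4 lists. Of 14 kept probes for other TOP mRNAs and ribosome-associated proteins, 12 were higher with coarse particles than in air, with a median of 0.20, and none was called. Among the 18 arrays 6 of 14 were higher and the median was -0.026. On the 6 arrays with the highest lymphocyte markers the elongation factor Eef1a1 deviated by 0.42 to 1.18 and the ribosome-bound scaffold Rack1 by 0.42 to 1.08, above 0 on each as most ribosomal proteins were. Tpt1 was below 0 on coarse 2 and fine 2 (-0.15 and -0.26), and Npm1 and Hnrnpa1 on fine 2 (-0.20 and -0.0042). The rest of the 14 were above 0 on each of the 6. On ultrafine 8 the nascent chain binding protein Naca and its partner Btf3 deviated by -2.87 and -1.77, among 5 of 14 probes lower by more than 1. So were 5.82% of all kept probes and 20.6% of those with a mean of 9 or more. In the other lists 10 of 58 mitochondrial ribosomal, 4 of 33 initiation factor and 0 of 21 biogenesis probes were that low.

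The 58 kept mitochondrial ribosomal protein probes, whose products translate the mitochondrial genome, were not raised on the 6 arrays. Their mean was 8.30 to 8.68 there and 8.59 to 8.80 on the 18 others. With coarse particles 12 of 58 were higher than in air (median -0.078), with fine 36 (median 0.033) and with ultrafine 11 (median -0.094), and none was called. Without the 9 arrays that stand apart the counts were 26, 34 and 15, with medians of -0.0090, 0.019 and -0.054. Mrpl19 stood at -0.40 with ultrafine particles (adjusted p = 0.137 in the limma fit). The initiation factor list was taken by symbol, Eif and a digit without the Eif2ak kinases. It so holds Eif4ebp1, Eif4ebp2 and Eif4enif1, which bind Eif4e, and shares Eif3h and Eif4b with the TOP list. Of its 33 probes none was called in any of the 6 comparisons. With coarse, fine and ultrafine particles 19, 17 and 17 were higher than in air, or 14, 20 and 11 over the 18 arrays. Of the 21 ribosome biogenesis probes 8, 11 and 13 were, or 4, 11 and 4 over the 18 arrays, where the ultrafine median turned from 0.039 to -0.076. Among the 4 lists the nucleolar protein nucleolin (Ncl) was the 1 call over 27 arrays, lower with fine than with ultrafine particles (log2 difference -0.48, SE 0.094, adjusted p = 0.0227 in the limma fit). Over the 18 arrays it was not called (log2 difference -0.32, adjusted p = 0.252 in the limma fit).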

How the data were processed

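Total RNA of rat hearts, labelled with biotin, was measured on 27 Illumina bead arrays. The deposited values are on a log2 scale, 5.12 to 14.17, made by the authors with lumi 1.5.17, per the submitters' processing notes; a plain log2 and a variance-stabilizing transform are both possible, and which was used is not given in the sources used here. Sorted values of each array differed from those of the first array by at most 0.0185, so the arrays share nearly 1 distribution. No detection calls were used: the 11657 probes with the highest mean (at least 5.79) were kept, the number the labels give for the authors' own filter. Of 22226 probes, 13192 had 1 gene symbol, 0 several and 9034 none; 13151 of the symbols matched RefSeq.

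Groups were compared in limma 3.58.1 (R 4.3.3) with 1 mean per group over all arrays, 6 contrasts and a moderated F test, two-sided, with Benjamini-Hochberg adjustment over the kept probes. Intervals are moderated 95% intervals. The fit was tested on simulated data. Tables and plots used numpy 2.4.6, pandas 2.3.3 and matplotlib 3.10.9. Named were Rpl35 and Rps16, members called in any comparison, the 3 highest and 3 lowest differences per comparison, the 3 largest and 3 smallest SDs, and paralogues with their parents. Members described for their deviations on single arrays, those at an unadjusted p under 0.05, Rpl14 and Rps15 were named after their values were seen. Members and lists were chosen with earlier results of these data known. Alternatives were the filter, centring, cyclic loess, a trended robust fit, weights per array, a replicate block, the compared groups alone, leaving out the arrays that stand apart, and each array in turn. Same-numbered arrays of different groups were not treated as pairs: the correlations of their deviations ran from -0.717 to 0.873 over 37 pairs, with a median of 0.341, and 23 of the 37 were over 0.1, not every one.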

Additional observations from a re-analysis of the deposited data

Results flagged for a closer look

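Single arrays lay far from the rest of their group by Dixon's test in 15 of 100 cases, taken over the mean of the members and 24 named members. Chance alone gives about 1 in 20 independent groups, but 15 of 100 cannot be set against that rate, since some of these members were named for their large spread or difference and all share the same arrays. On ultrafine 8, 5 members were far below the other ultrafine arrays: Rps13 at 7.13, Rpl36al1 at 7.61, Rps12 at 7.69, Rps3a at 8.79 and Rps27 at 9.02. On coarse 1, 5 were far above the other coarse arrays: Rps16 at 6.56, Rps12 at 11.73, Rpl21 at 12.15, Rpl22 at 12.20 and Rps26 at 13.18. On filtered air 1 the mean of the members, at 11.22, Rpl3, at 12.35, and Rpl36, at 10.68, were far above the other air arrays. Rplp0 was far above the other coarse arrays on coarse 2, at 13.92, and Rplp1 far below the other fine arrays on fine 1, at 11.24.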

How the results depend on the processing

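No member was called in any of the 6 comparisons under any of the 36 alternatives, apart from Rpl14, the 1 call for ultrafine particles against air without the arrays that stand apart. Leaving out each of the 18 remaining arrays as well, added after seeing the data, called Rpl14 also for coarse particles against air (without ultrafine 5) and Rps15 for fine against ultrafine (without ultrafine 4). The count of members higher in the first group depended on single arrays: leaving out each array in turn gave 27 to 57 for coarse against air, 29 to 45 for fine against air, 27 to 51 for ultrafine against air, 17 to 55 for coarse against fine, 24 to 49 for coarse against ultrafine and 15 to 39 for fine against ultrafine. In the same order of comparisons, array weights gave 29, 38, 11, 11, 42 and 51, with medians of -0.022, 0.041, -0.072, -0.087, 0.054 and 0.13, and leaving out the 9 arrays that stand apart 18, 38, 23, 11, 19 and 47, with medians of -0.089, 0.033, -0.031, -0.11, -0.047 and 0.076. With cyclic loess the medians were 0.12, 0.0043, 0.11, 0.17, 0.019 and -0.084. With the replicate block 0 members were called and 57, 44, 51, 48, 42 and 23 were higher; the arrays share only a number, and 6 of 26 correlated best with their own. Probes called over all genes, 1, 0, 8, 3, 0 and 23 in the fit reported, were 126, 19, 86, 55, 0 and 815 with array weights, 3, 0, 13, 6, 0 and 58 with cyclic loess, 9, 0, 12, 9, 0 and 51 with the replicate block, 1, 0, 4, 1, 0 and 20 without a filter, 1, 0, 3, 2, 0 and 13 over the brighter kept probes, 1, 0, 0, 3, 0 and 16 with the trended robust fit, 0, 0, 1, 2, 0 and 5 with the compared groups alone and 28, 0, 67, 17, 0 and 54 without the arrays that stand apart. Leaving out each array in turn gave 0 to 3 such probes for coarse against air, 0 to 21 for ultrafine against air (highest without ultrafine 7), 0 to 8 for coarse against fine (highest without ultrafine 7 or ultrafine 8) and 7 to 168 for fine against ultrafine (lowest without fine 4, highest without ultrafine 5), and 0 for the others. Of 71 differences of named members, 34 changed sign in at least 1 alternative, 18 of them without the arrays that stand apart. The cause was not tested. Dim probes near the floor, the few coarse arrays that do not stand apart and the unstated transform limit the differences.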
